A study of Mus musculus with 44 samples.

Results

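The 10 genes described here encode proteins of neutrophil granules, and they were taken by symbol from the 18193 genes measured. Mpo, Elane, Prtn3 and Ctsg are the 4 genes of primary (azurophil) granule proteins, and Ltf, Camp, Ngp, S100a8, S100a9 and Mmp8 are the 6 later ones. Each of the 10 was represented by exactly 1 probe set, and all 10 were found. The arrays, 44 in all, measured liver, spleen and bone marrow (right humerus) of B6C3F1 mice, a hybrid laboratory strain, that had received 2-butoxyethanol (2BE), a solvent of the glycol ether class, or its vehicle alone. At 4 h the liver was measured on 4 arrays of 2BE mice and 3 of vehicle mice, and the spleen on 4 and 4. At 7 d the liver was measured on 5 arrays of 2BE mice and 4 of vehicle mice, the bone marrow on 5 and 5, and the spleen on 5 and 5. The treatment field of the labels describes the 2BE samples as reduced oxygen and the vehicle samples as control, so the groups here follow the sample titles, and the sources used here state no dose, route, sex or age. They also do not state whether replicates were separate animals, whether tissues came from the same animals or whether RNA was pooled, so p-values measure only the spread between these samples.

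Neutrophils pack antimicrobial proteins into granules that are filled in order as the cell matures. Primary granules are loaded at the promyelocyte stage, when the genes of myeloperoxidase and of the neutrophil serine proteases are transcribed, and these transcripts are largely gone from mature neutrophils. Secondary and tertiary granule proteins and the calgranulins S100a8 and S100a9 are made later, from the myelocyte stage on, and the calgranulins remain abundant in circulating neutrophils and are also made by monocytes. In adult mice the bone marrow is the main site of granulopoiesis, and the red pulp of the mouse spleen also holds blood-forming tissue.

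Mpo encodes myeloperoxidase, which makes hypochlorous acid, and lies at chr11:87793784-87804412 of GRCm38.p6. Elane (neutrophil elastase, chr10:79886312-79888216) and Prtn3 (proteinase 3, chr10:79879667-79883174) are serine protease genes that lie 3137 bases apart, and Ctsg (cathepsin G, chr14:56099885-56102574) is another. The windows below hold the 250 bases before each gene's annotated start, from RefSeq on GRCm38.p6 and read 5′ to 3′ on the gene's strand. The 4 primary granule genes are shown because they were the members whose 2BE and vehicle arrays stood apart in the spleen. Windows of all 10 members were found. Capitals mark matches, on either strand, to the purine box of PU.1 (GAGGAA) and to a TATA box (TATAAA).
Mpo: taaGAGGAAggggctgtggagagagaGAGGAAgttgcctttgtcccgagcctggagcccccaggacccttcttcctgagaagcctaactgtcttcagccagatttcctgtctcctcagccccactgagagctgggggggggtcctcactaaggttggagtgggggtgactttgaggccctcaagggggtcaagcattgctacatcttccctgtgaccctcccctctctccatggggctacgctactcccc
Elane: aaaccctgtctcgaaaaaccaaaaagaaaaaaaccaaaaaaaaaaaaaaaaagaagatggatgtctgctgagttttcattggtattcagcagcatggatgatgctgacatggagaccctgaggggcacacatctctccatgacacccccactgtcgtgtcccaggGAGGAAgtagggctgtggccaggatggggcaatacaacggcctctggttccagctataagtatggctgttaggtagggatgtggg
Prtn3: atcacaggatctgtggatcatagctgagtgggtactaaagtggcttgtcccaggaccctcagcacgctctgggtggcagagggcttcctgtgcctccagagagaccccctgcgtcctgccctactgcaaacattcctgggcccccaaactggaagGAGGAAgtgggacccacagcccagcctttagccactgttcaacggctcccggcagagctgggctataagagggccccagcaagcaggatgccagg
Ctsg: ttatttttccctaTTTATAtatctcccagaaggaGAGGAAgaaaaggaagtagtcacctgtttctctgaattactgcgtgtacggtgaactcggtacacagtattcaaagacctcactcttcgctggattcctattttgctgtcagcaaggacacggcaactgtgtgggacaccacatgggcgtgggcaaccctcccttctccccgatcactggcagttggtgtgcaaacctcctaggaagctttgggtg
These windows lie at chr11:87793534-87793783 (plus strand) for Mpo, chr10:79886062-79886311 (plus) for Elane, chr10:79879417-79879666 (plus) for Prtn3 and chr14:56102575-56102824 (minus) for Ctsg. GAGGAA was found in all 4 of them, 2 times for Mpo and 1 time in each of the others. Among 32851 windows of all genes 23.3% held it. The core of a C/EBP site (TTNNGNAA) was found in 0 of these 4 windows and in 36.8% of all windows. TATAAA was found in the Ctsg window, and in 12.4% of all windows. The Ctsg match lies on the opposite strand at -237 to -232 from the gene's start, and whether it acts as a TATA box was not tested. No match overlapped another in these windows.

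The C/EBP core was found upstream of 5 of the 6 later genes and 0 of the 4 primary genes, against 36.8% of all windows. The purine box was found upstream of 3 of the 6 later genes and all 4 primary genes, against 23.3%. Camp held neither. The difference between the 2 groups was not tested. Only these exact letters were searched, so a window without a match is not shown to lack a site. Ngp and S100a9 are shown as the windows with the C/EBP core and no purine box, and capitals mark TTNNGNAA on either strand.
Ngp: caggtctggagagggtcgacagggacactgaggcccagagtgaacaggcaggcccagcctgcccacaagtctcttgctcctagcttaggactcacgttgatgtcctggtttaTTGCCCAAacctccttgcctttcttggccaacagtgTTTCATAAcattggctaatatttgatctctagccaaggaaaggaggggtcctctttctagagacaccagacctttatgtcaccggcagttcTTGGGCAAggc
S100a9: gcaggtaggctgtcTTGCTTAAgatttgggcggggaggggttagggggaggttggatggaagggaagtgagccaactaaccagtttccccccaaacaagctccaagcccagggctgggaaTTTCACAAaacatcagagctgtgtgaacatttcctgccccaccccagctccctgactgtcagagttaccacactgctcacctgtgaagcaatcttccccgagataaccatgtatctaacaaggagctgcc
Ngp encodes neutrophilic granule protein, and its window (chr9:110419558-110419807, plus strand) held 3 matches, the nearest 4 to 11 bases before the gene's start. S100a9, which encodes a calcium-binding calgranulin, held 2 in its window (chr3:90695722-90695971, minus strand). The matches describe the letters of these windows, and binding of a factor was not measured.

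Levels were compared only within a tissue and time, since the medians of the arrays fell into 5 separate sets, which may have been normalized separately. In the marrow of vehicle mice the 10 genes lay between 4071 and 35190 in intensity, where the median over all probe sets was 87.7 to 89.4. In the liver of vehicle mice at 7 d they lay between 17.2 and 72.6, where that median was 50.7 to 51.2, so most liver values lay below the median probe set.

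**Figure D1:**
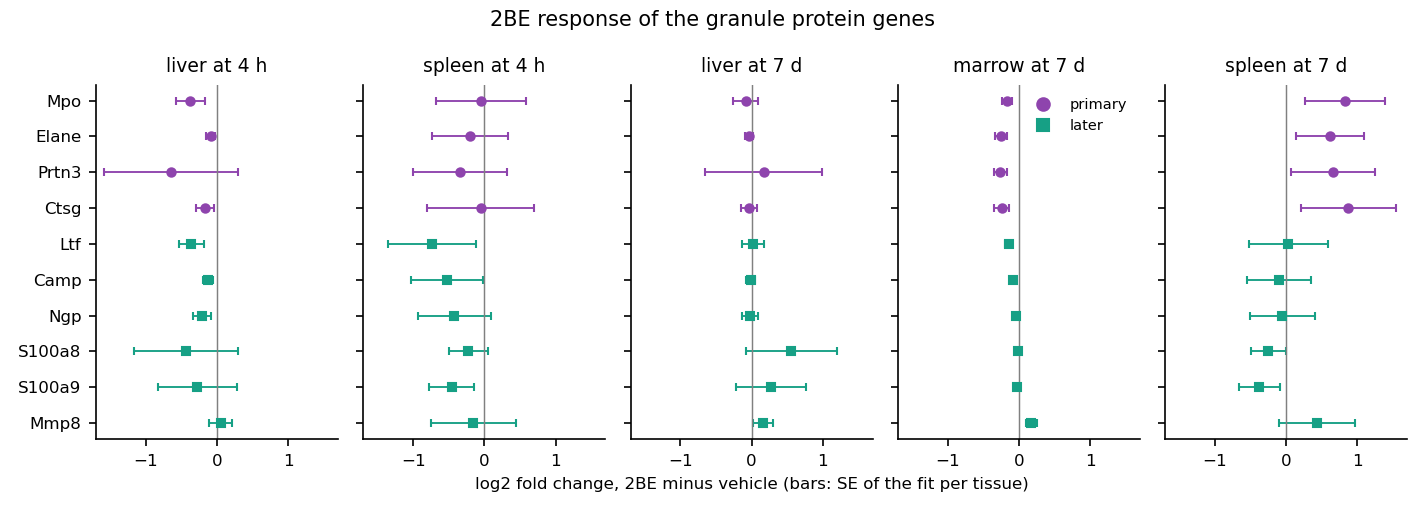
Log2 fold change, 2BE minus vehicle, of each member in each tissue and time set, with bars of 1 standard error (SE) of the fit per tissue; circles are primary and squares later granule genes. In the spleen at 7 d the 4 primary genes lie at 0.62 to 0.88 and the 6 later genes at -0.38 to 0.44.

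In the spleen at 7 d the primary granule genes were higher in every 2BE array than in any vehicle array, while the later granule genes overlapped between the arms. Mpo had intensities of 410, 531, 549, 463 and 474 in the 2BE spleens, against 286, 219, 299, 327 and 236 in the vehicle spleens. The lowest 2BE spleen lay above the highest vehicle spleen, and the mean difference was 0.83 on the log2 scale, or 1.78-fold. Elane had 258, 323, 346, 258 and 267 in the 2BE spleens, against 201, 155, 202, 223 and 165 in the vehicle spleens (1.54-fold). Prtn3 had 268, 318, 304, 257 and 310 in the 2BE spleens, against 194, 160, 224, 208 and 142 in the vehicle spleens (1.58-fold). Ctsg, which showed the largest difference of the 10 members, had 174, 255, 219, 207 and 181 in the 2BE spleens, against 114, 108, 109, 114 and 112 in the vehicle spleens (1.84-fold). Its vehicle spleens lay close together, with the highest 1.06 times the lowest. They also lay near the array medians of these spleens (109.3 to 111.5), so they are not shown to be above background. The vehicle levels of Ctsg, Elane and Prtn3 ranked above those of 39.9%, 50.0% and 49.6% of all genes. The arms of all 4 primary genes stood apart in the higher direction, as did those of 20.0% of all genes tested. In whole spleen, a change in the number of cells that make a transcript and a change in the RNA per cell cannot be told apart.

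The 6 later genes of the same spleens did not separate the arms. Ltf, the iron-binding lactoferrin of secondary granules, had 426, 630, 689, 531 and 551 in the 2BE spleens, against 649, 449, 725, 567 and 406 in the vehicle spleens. Camp, which encodes the cathelicidin antimicrobial peptide, had 782, 1042, 1320, 772 and 956 in the 2BE spleens, against 1339, 807, 1262, 1027 and 797 in the vehicle spleens. Ngp had 1337, 1947, 2290, 1661 and 1763 in the 2BE spleens, against 2476, 1429, 2392, 1778 and 1398 in the vehicle spleens. For these 3 secondary granule genes the log2 differences were 0.03, -0.10 and -0.05, each smaller than its SE. S100a8 had 3344, 4655, 6240, 3629 and 6411 in the 2BE spleens, against 7464, 4380, 6215, 5341 and 4949 in the vehicle spleens. S100a9, its partner in the calprotectin complex, had 2054, 2725, 3973, 2369 and 4024 in the 2BE spleens, against 4951, 2927, 4294, 3687 and 3428 in the vehicle spleens. In both calgranulins 2BE replicates 1 and 4 were the lowest of the 10 arrays, and the log2 differences were -0.25 and -0.38. Mmp8, a collagenase of tertiary and secondary granules, had 48.0, 119, 134, 95.8 and 262 in the 2BE spleens, against 101, 81.4, 72.1, 89.9 and 78.7 in the vehicle spleens. Its 2BE arm spanned 5.45-fold and enclosed the vehicle arm.

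**Figure D2:**
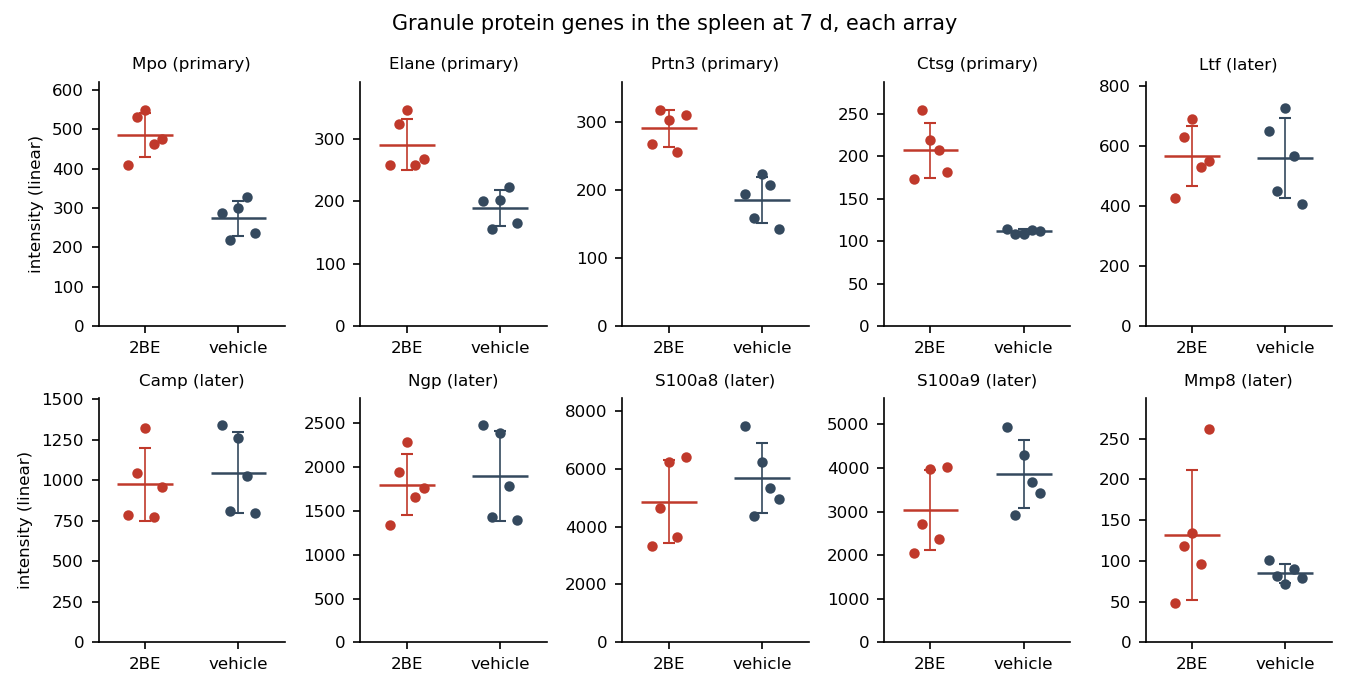
Intensity (linear scale, axes starting at 0) of each member on each spleen array at 7 d, 2BE on the left and vehicle on the right of each panel, with the mean and SD (n = 5 each). The arms of Mpo, Elane, Prtn3 and Ctsg do not overlap, and those of the 6 later genes do.

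Whether these differences passed the test depended on which arrays gave the estimate of the spread. The limma fit over all spleen arrays, at 4 h and 7 d, called 0 of the 10 members changed at a Benjamini-Hochberg adjusted p under 0.05 (0 also had an unadjusted p under 0.05), against 64.4% of all genes. The primary genes had adjusted p values of 0.199 (Mpo), 0.261 (Elane), 0.330 (Prtn3) and 0.256 (Ctsg), with SEs of 0.48 to 0.67. That fit pools the spread of both times, and the members' SD within groups on the log2 scale was 0.523 to 1.84 at 4 h and 0.158 to 0.632 at 7 d. In the fit over only the 10 spleen arrays of 7 d all 4 primary genes rose, with adjusted p of 3.33e-05 for Mpo (SE 0.11), 0.000447 for Elane (SE 0.12), 0.000298 for Prtn3 (SE 0.12) and 3.9e-06 for Ctsg (SE 0.09), and 63.8% of all genes were called. None of the 6 later genes passed there, the lowest adjusted p being 0.0989 for S100a9. A fit over all arrays of 7 d, chosen after the data were seen, called the same 4 genes and also S100a9 in the lower direction (adjusted p = 0.0367), with 69.0% of all genes called. It also pools the spread of the marrow, where the SD of S100a9 within groups was 0.032, against 0.373 in the spleen at 7 d. In the fit over both times 32.4% of all genes rose in the spleen, and in the fit over the 7 d spleens 31.7% did, against which the 4 rises among 10 members are to be read.

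The gap between primary and later genes was smaller in the 2BE spleens. The mean log2 level of the 4 primary genes minus that of the 6 later genes was -1.82 ± 0.31 in the 2BE spleens and -2.62 ± 0.18 in the vehicle spleens (SD, n = 5 each). The arms did not overlap, with a range of -2.22 to -1.46 in the 2BE spleens and -2.90 to -2.44 in the vehicle spleens. The difference between the arms was 0.80, and it lay between 0.71 and 0.90 when each array was left out in turn. Marker lists of other cells shifted in the same arrays. The mean of the 7 erythroid markers measured was 11.79 to 12.11 in the 2BE spleens and 8.72 to 10.16 in the vehicle spleens (7 of 7 higher), and that of the 9 cell cycle genes 12.23 to 12.53 and 9.60 to 10.57 (9 of 9 higher). The mean of the 7 B cell markers was 9.53 to 10.85 in the 2BE spleens and 11.67 to 11.99 in the vehicle spleens (7 of 7 lower), and that of the 10 monocyte and macrophage markers 9.32 to 9.73 and 10.04 to 10.30 (7 of 10 lower). The lowest value in the whole table was 6.16, and a value above 0 does not show that a marker was detected. The part of these shifts in the members' values was not tested.

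Of the other lists of granule and granulocyte genes in the spleen at 7 d, more genes fell than rose in 5 of 6, in a set where 32.4% of all genes rose and 32.0% fell. All 6 measured genes of other primary granule and processing proteins fell, with a median log2 difference of -1.02, against 0.05 over all genes. They include Serpinb1a, an inhibitor of the granule serine proteases (-1.51 ± 0.16 SE, adjusted p = 2.28e-07), Ctsc, the peptidase that activates those proteases (-1.10 ± 0.14), and lysozyme Lyz2, which macrophages make as well (-1.04 ± 0.14). Of 22 other later granule genes 8 fell and 0 rose, and among the 8 the largest falls were those of the NADPH oxidase subunits Cybb (-1.50 ± 0.12) and Cyba (-1.17 ± 0.11) and the integrin subunit Itgb2 (-1.07 ± 0.11), all of which other leukocytes also express. Lcn2, the secondary granule protein lipocalin 2, was at -0.13 ± 0.49. Of 9 granulocyte transcription factors 6 fell and 2 rose. Irf8, which favours monocytes over granulocytes, was at -1.26 ± 0.16, Spi1, the gene of PU.1, at -1.20 ± 0.12, and Gfi1, a repressor needed for neutrophil maturation, at -0.82 ± 0.26 (adjusted p = 0.0111), while Klf5 was at 1.57 ± 0.21. Of 9 genes listed as progenitor genes 4 fell, led by Nkg7 (-1.43 ± 0.17), Igsf6 (-0.75 ± 0.15) and Cd34 (-0.75 ± 0.17). In these spleens 7 of 7 NK cell markers, 6 of 7 T cell markers (1 rose) and 6 of 6 endothelial markers also fell. Which cells the 4 falls came from was not tested. Ms4a3, a gene of granulocyte and monocyte progenitors, was at 0.54 ± 0.58 with its arms apart in the higher direction, as for the 4 primary genes. Among 13 receptors 2 fell, Csf2ra and Csf2rb of the GM-CSF receptor (-1.12 ± 0.16 and -0.76 ± 0.17). Csf3r, Cxcr2 and Cxcr4 were at -0.26 ± 0.28, -0.13 ± 0.20 and 0.26 ± 0.20, and none of the 3 was called. Of 10 cytokines and chemokines Cxcl12 fell (-1.05 ± 0.15) and Il17a, an interleukin gene, rose (0.17 ± 0.06), with Csf3, the gene of G-CSF, at 0.22 ± 0.13.

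In the bone marrow at 7 d the arms of all 4 primary granule genes overlapped, and Elane alone of them was called. For each, 4 of the 5 2BE arrays lay below every vehicle array, and the share of all genes with that pattern is not given here. The arms of the later genes Ltf, Camp and Ngp stood apart in the lower direction, and those of S100a8, S100a9 and Mmp8 overlapped. Mpo had 13348, 12018, 11870, 12642 and 15439 in the 2BE marrows, against 15125, 14010, 14475, 14647 and 14768 in the vehicle marrows. Elane had 10087, 8006, 9018, 8266 and 11294 in the 2BE marrows, against 10943, 10808, 10844, 10915 and 11404 in the vehicle marrows. The fall of Elane was 0.25 on the log2 scale (fold change 0.843, SE 0.08, adjusted p = 0.0484). Prtn3 had 7066, 5682, 6193, 6047 and 8493 in the 2BE marrows, against 8138, 8009, 7715, 7857 and 8015 in the vehicle marrows (-0.26 ± 0.09, adjusted p = 0.0528). Ctsg had 3678, 3178, 3301, 3380 and 5031 in the 2BE marrows, against 4447, 4071, 4348, 4264 and 4524 in the vehicle marrows (-0.24 ± 0.10, adjusted p = 0.114). For Mpo, Prtn3 and Ctsg, replicate 5 of the 2BE marrows was the highest of all 10 arrays, and for all 4 primary genes the other 4 2BE marrows lay below every vehicle marrow. Without that array all 4 primary genes fell, by 0.23 (Mpo, adjusted p = 0.00955), 0.32 (Elane, 0.00478), 0.35 (Prtn3, 0.00168) and 0.36 (Ctsg, 0.000858), while Ltf was no longer called (0.0585). In that fit 20.2% of all genes were called. The array is singled out here because it was high in these same genes, so these p-values are no separate support for a fall. The B cell marker mean of 2BE replicate 5 was 8.55, as in 2BE replicate 1, and its skeletal muscle marker mean of 8.08 was the highest of the 10 marrows. Their part in its values was not tested.

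Of the later genes in the marrow, Ltf had 18149, 18560, 17700, 17322 and 18180 in the 2BE marrows, against 20458, 19038, 19874, 19891 and 19915 in the vehicle marrows. All 5 2BE values lay below all vehicle values, and the fall was 0.14 on the log2 scale (SE 0.05, adjusted p = 0.0433). Camp had 23755, 23422, 23880, 23633 and 24220 in the 2BE marrows, against 26322, 24341, 24910, 25563 and 24510 in the vehicle marrows. Ngp had 28568 to 29464 in the 2BE marrows and 29506 to 30418 in the vehicle marrows. Camp and Ngp were also apart in the lower direction, by -0.08 ± 0.05 and -0.04 ± 0.04, but were not called. S100a8 had 29075 to 29705 in the 2BE marrows and 29088 to 30265 in the vehicle marrows, and S100a9 33027 to 33675 and 32556 to 35190. Their differences were -0.02 ± 0.04 and -0.03 ± 0.04, and at levels this near the highest value of the table (47797.8) how far the array still responds was not tested. Mmp8 had 6784, 8974, 6991, 7807 and 7707 in the 2BE marrows, against 7644, 6006, 6759, 7066 and 6323 in the vehicle marrows, a difference of 0.18 ± 0.08 (adjusted p = 0.151).

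In all, 2 of the 10 members changed in the marrow (Elane and Ltf, both lower), against 20.1% of all genes and 10.7% in the lower direction. The arms of 3 members stood apart in the lower direction, against 8.45% of all genes. Leaving out each array in turn gave between 0 and 4 called members. Elane was called in 2 of the 10 such fits and Ltf in 2. In the fit over all arrays of 7 d, chosen after the data were seen, 0 members passed (adjusted p = 0.0836 for Elane and 0.500 for Ltf), and 14.4% of all genes did. The primary minus later difference was -1.53 ± 0.22 in the 2BE marrows and -1.33 ± 0.04 in the vehicle marrows, and these arms overlapped.

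**Figure D3:**
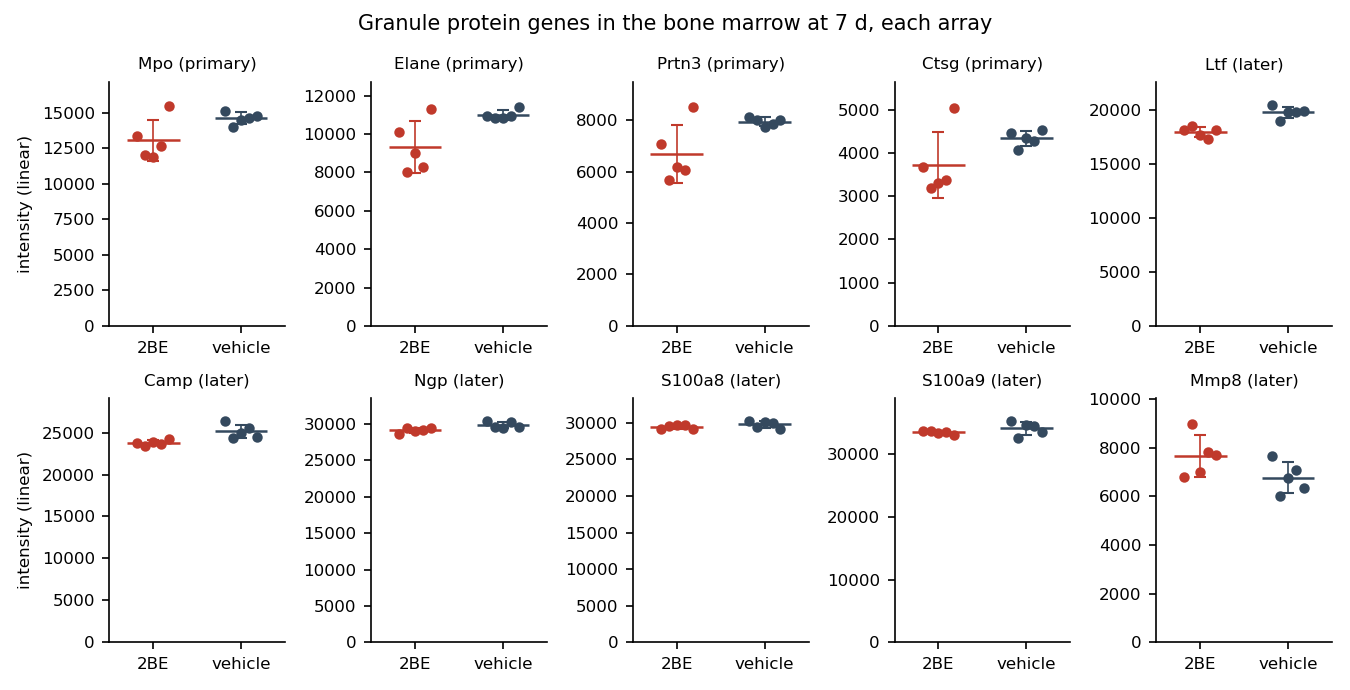
Intensity (linear scale, axes starting at 0) of each member on each marrow array at 7 d, 2BE on the left and vehicle on the right of each panel, with the mean and SD (n = 5 each). For Mpo, Elane, Prtn3 and Ctsg 4 of the 5 2BE points lie below the vehicle points, and the fifth, replicate 5, lies among or above them.

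Around the members in the marrow, B cell markers fell (7 of 7, mean 7.96 to 8.55 in the 2BE marrows and 9.46 to 9.64 in the vehicle marrows), as did B cell precursor markers (6 of 6, 7.91 to 8.63 and 9.33 to 9.71). Erythroid markers rose (5 of 7, 11.61 to 11.82 in the 2BE marrows and 11.23 to 11.54 in the vehicle marrows). The part of these shifts in the members' values was not tested. Of 9 progenitor genes 2 fell, Myb, a transcription factor of immature blood cells (-0.71 ± 0.09, adjusted p = 0.000153), and Fcnb, the ficolin of granule-forming cells (-0.31 ± 0.07, adjusted p = 0.00843). Ms4a3 was at -0.25 ± 0.10 (adjusted p = 0.0967). Of 22 other later granule genes Cyba (-0.27 ± 0.06) and the peptidoglycan recognition protein gene Pglyrp1 (-0.20 ± 0.06) fell and 0 rose. Of 6 other primary and processing genes 0 were called, with Ctsc at -0.04 ± 0.10. Lcn2 was at -0.05 ± 0.06. Among 9 transcription factors Irf8 (-0.53 ± 0.06) and Spi1 (-0.25 ± 0.08) were the largest falls, Cebpb was the largest rise (0.41 ± 0.13), and Gfi1 was at -0.28 ± 0.11 (adjusted p = 0.0874). Among 13 receptors Cxcr4, which holds neutrophils in the marrow, fell (-0.33 ± 0.07), and Clec4e, a lectin receptor of activated myeloid cells, rose (0.51 ± 0.15). Csf3r was at -0.16 ± 0.10, Cxcr2 at 0.29 ± 0.12 and Csf3 at -0.00 ± 0.09, and 0 of 10 cytokines and chemokines were called.

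The responses of marrow and spleen at 7 d were compared directly, as the difference of the 2 log2 differences in a limma fit over all arrays of that time. All 4 primary genes responded lower in marrow than in spleen, and these were the only members called. The count of 4 of 10 lies near the 44.9% of all genes called in either direction. In the lower direction 19.9% of all genes were called. The difference, marrow minus spleen, was -1.001 ± 0.14 for Mpo (adjusted p = 1.07e-06), -0.87 ± 0.14 for Elane (6.28e-06), -0.92 ± 0.15 for Prtn3 (1.51e-05) and -1.12 ± 0.14 for Ctsg (1.29e-07). All 4 remained called in each of 20 fits that left out 1 array. The 6 later genes differed by -0.26 to 0.35, with adjusted p of 0.207 or more.

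The spleen also responded differently from the liver at 7 d in 6 of the 10 members, against 57.0% of all genes (27.4% higher and 29.6% lower in spleen). That count lies near the share of all genes. The difference, spleen minus liver, was 0.92 ± 0.14 for Mpo (adjusted p = 3.64e-06), 0.66 ± 0.14 for Elane (0.000215), 0.49 ± 0.16 for Prtn3 (0.00924) and 0.91 ± 0.14 for Ctsg (3.56e-06). The calgranulins differed the other way, S100a8 by -0.81 ± 0.30 (adjusted p = 0.0250) and S100a9 by -0.65 ± 0.23 (adjusted p = 0.0181). This fit over all arrays of 7 d also pools the spread of the marrow, which has no part in the difference. The log2 SD of S100a8 within groups was 0.020 in marrow, 0.37 in spleen and 0.53 in liver. That of S100a9 was 0.032, 0.37 and 0.30, so these SEs are smaller than spleen and liver alone would give. In the liver arrays Mpo lay at 26.0 to 36.0, Ctsg at 39.2 to 51.1 and S100a8 at 22.2 to 87.7, near or below the array medians of 50.0 to 52.2 on most arrays, so the liver part of these differences is of signals not shown to be above background. Without 2BE replicate 5 of the livers, where S100a8 was highest, its difference was -0.53 and still called. These comparisons share the spleen arrays with the one between marrow and spleen. The call of S100a8 was lost in 4 of 19 fits that left out 1 array, namely liver vehicle replicate 4, spleen vehicle replicate 1, or spleen 2BE replicate 1 or 4 (adjusted p of 0.0521 to 0.0569), and Mmp8 was called without spleen 2BE replicate 1 (0.58, adjusted p = 0.0417).

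**Figure D4:**
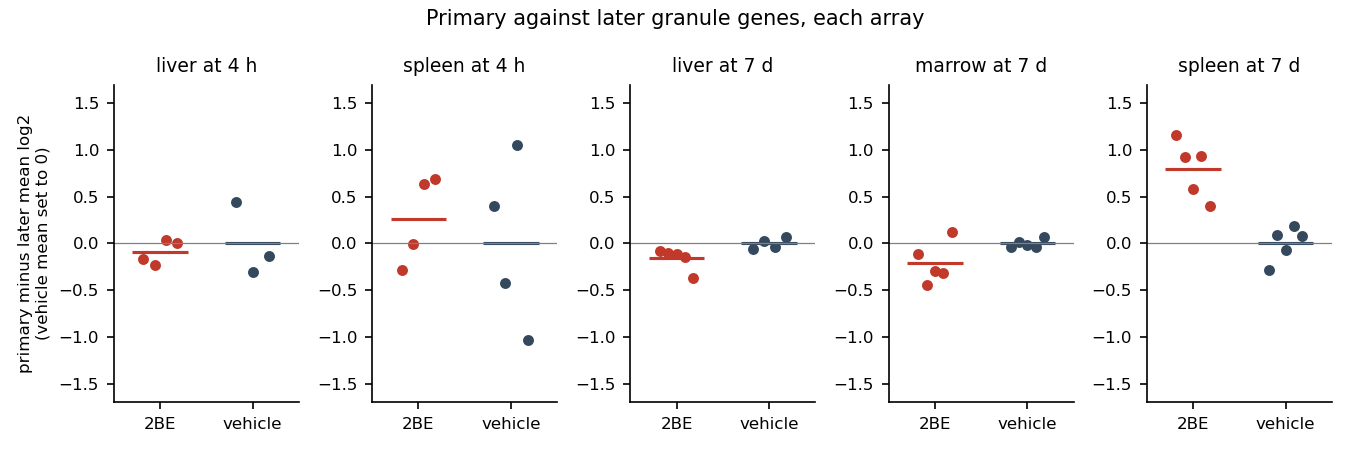
Mean log2 level of the 4 primary genes minus that of the 6 later genes for each array, with the vehicle mean of each tissue and time set to 0, 2BE on the left and vehicle on the right; lines are group means. The 2BE spleens at 7 d lie 0.80 above the vehicle spleens on average, and the 2BE marrows 0.21 below the vehicle marrows.

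At 4 h the members in the spleen varied more between arrays of 1 arm than between the arms. Mpo had 825, 1069, 2322 and 3107 in the 2BE spleens, against 2038, 416, 10018 and 860 in the vehicle spleens. Elane had 537, 665, 1206 and 1729 in the 2BE spleens, against 1190, 385, 5176 and 549 in the vehicle spleens. Prtn3 had 595, 760, 1905 and 2321 in the 2BE spleens, against 1890, 384, 10059 and 711 in the vehicle spleens. Vehicle replicate 3 was the highest array and vehicle replicate 2 the lowest for all 3 of these genes. Ctsg had 263, 332, 1001 and 1093 in the 2BE spleens, against 681, 111, 5283 and 275 in the vehicle spleens, a 47.4-fold span within the vehicle arm. The same 2 vehicle arrays bounded the secondary granule genes. Ltf had 560, 801, 936 and 1524 in the 2BE spleens, against 1904, 307, 8829 and 959 in the vehicle spleens. Camp had 1208, 1792, 1738 and 2589 in the 2BE spleens, against 3324, 691, 9901 and 1849 in the vehicle spleens. Ngp had 2432, 3516, 4284 and 6482 in the 2BE spleens, against 6619, 1422, 20178 and 4015 in the vehicle spleens. The calgranulins were less spread. S100a8 had 11544, 10050, 15580 and 15622 in the 2BE spleens, against 13631, 8725, 26660 and 16551 in the vehicle spleens. S100a9 had 9614, 7543, 12713 and 13034 in the 2BE spleens, against 11874, 7487, 31091 and 15602 in the vehicle spleens. Mmp8 broke the order of the others, with 497, 317, 992 and 850 in the 2BE spleens, against 239, 257, 1907 and 1739 in the vehicle spleens, so that vehicle replicates 3 and 4 were both high.

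All 10 log2 differences in the spleen at 4 h were negative, from -0.74 ± 0.62 (Ltf) to -0.05 ± 0.63 (Mpo), and 0 members were called (0 also at an unadjusted p under 0.05), against 5.16% of all genes. Single arrays turned the sign. With 1 array left out in turn the difference of Mpo ran from -0.71 (without vehicle replicate 2) to 0.82 (without vehicle replicate 3) and that of Ctsg from -0.84 to 1.01. Both were also above 0 without vehicle replicate 1, 2BE replicate 1 or 2BE replicate 2. Other markers moved with these arrays. In vehicle replicate 3 the erythroid marker mean was 11.26, the cell cycle mean 11.77 and the B cell marker mean 10.34, and in vehicle replicate 2 these were 10.36, 10.49 and 11.43. Over the arms they ran, for erythroid markers, from 10.36 to 10.98 in the 2BE spleens and 10.36 to 11.26 in the vehicle spleens, for cell cycle genes from 10.67 to 11.63 and 10.49 to 11.77, and for B cell markers from 10.21 to 10.88 and 10.34 to 11.43, with 0 genes called in any of these 3 lists. Their part in the members' values was not tested. The response did not pass the test for a difference between 7 d and 4 h in the spleen for any member (0 of 10, lowest adjusted p 0.340, 0 also at an unadjusted p under 0.05, against 51.3% of all genes), with differences of -0.03 ± 0.37 for S100a8 to 1.01 ± 0.88 for Prtn3.

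**Figure D5:**
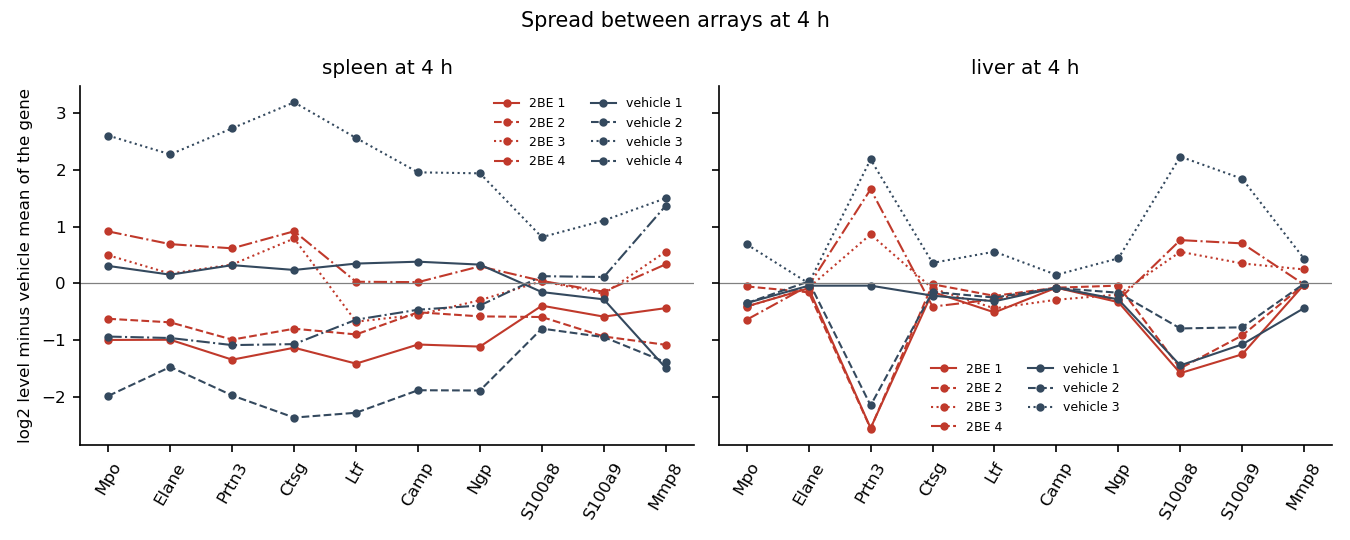
Log2 level of each member on each array at 4 h, minus the vehicle mean of the gene, for the spleen (left) and liver (right); each line is 1 array, red for 2BE and dark blue for vehicle. In the spleen vehicle replicate 3 is the highest line for all 10 genes, and in the liver Prtn3, S100a8 and S100a9 spread most.

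Chemoattractant genes rose in the same spleens, where no granule gene passed the test. The neutrophil chemoattractants Cxcl2 and Cxcl1 rose by 5.46 ± 0.21 and 4.48 ± 0.24 on the log2 scale (44.1-fold and 22.3-fold, adjusted p = 1.57e-11 and 5.03e-10), Cxcl5 rose by 2.87 ± 0.46, and Csf3 rose by 1.06 ± 0.15 (adjusted p = 0.00013). In all, 4 of 10 cytokines and chemokines rose and 0 fell. Their receptors were not called, with Cxcr2 at -0.45 ± 0.22, Csf3r at -0.76 ± 0.31 and Cxcr4 at 0.70 ± 0.22, nor was any of the 13 receptors measured. Of 9 transcription factors 3 rose, Cebpd (1.60 ± 0.31), Cebpb (1.45 ± 0.18) and Id2 (0.92 ± 0.16), and Gfi1 was at -0.23 ± 0.29. Of the other primary, processing and later granule genes 0 of 28 were called, with Lcn2 at -0.31 ± 0.55 and Ctsc at -0.05 ± 0.15. Of 9 genes listed as progenitor genes Nkg7 alone was called, lower at -0.90 ± 0.19, and Ms4a3 was at -0.29 ± 0.64. In these spleens 2 of 7 NK cell markers and 1 of 7 T cell markers also fell and 0 rose. Which cells the fall of Nkg7 came from was not tested.

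In the liver at 4 h only Prtn3, S100a8 and S100a9 reached intensities above 100. Prtn3 had 59.9, 59.6, 648 and 1125 in the 2BE livers, against 346, 79.4 and 1620 in the vehicle livers. S100a8 had 56.4, 59.9, 252 and 290 in the 2BE livers, against 62.1, 98.1 and 807 in the vehicle livers. S100a9 had 89.9, 113, 275 and 351 in the 2BE livers, against 102, 125 and 774 in the vehicle livers. Arrays 3 and 4 of the 2BE arm and array 3 of the vehicle arm were the high ones for all 3 genes. The other primary genes lay near or below the array medians of 41.2 to 42.4, with vehicle replicate 3 again the highest array for Mpo and Ctsg. Mpo had 27.0, 34.7, 26.9 and 22.8 in the 2BE livers, against 28.1, 28.1 and 58.7 in the vehicle livers, Elane lay at 49.7 to 54.0 and 54.0 to 56.9, and Ctsg at 28.8 to 38.2 and 33.1 to 49.8. Ltf, Camp, Ngp and Mmp8 lay at 15.4 to 34.0 in the 2BE livers and 14.5 to 51.3 in the vehicle livers.

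The fit called 0 of the 10 members in the liver at 4 h (0 also at an unadjusted p under 0.05), against 4.51% of all genes, with Prtn3 at -0.64 ± 0.94. That fit held no pairs. As an alternative, same-numbered arrays were treated as pairs here because their deviations correlated at 0.132 to 0.282 over the 3 shared numbers. Correlations this low do not establish a pairing, and the sources used here state none. Same-numbered spleens of 4 h and marrows, which were not taken as pairs, correlated at -0.381 to 0.543 and -0.088 to 0.164. Prtn3 was lower in the 2BE liver of each of the 3 same-numbered pairs. With the replicate number as a block Prtn3 fell by 1.41 (SE 0.30, adjusted p = 0.0418), the 1 member called against 2.59% of all genes in that fit. That fit also blocked the livers of 7 d, whose numbers were not taken as pairs, and pooled their spread. The SD of Prtn3 within groups was 2.20 at 4 h and 0.162 at 7 d. The SE and adjusted p therefore do not rest on the 3 pairs alone, and they hold only if equal numbers mark true pairs. The blocked differences of S100a8 and S100a9 were -0.84 ± 0.25 (adjusted p = 0.124) and -0.60 ± 0.22 (adjusted p = 0.211). Replicate 4 of the 2BE livers, the highest of that arm for Prtn3, has no partner and did not enter the blocked differences. The monocyte and macrophage marker mean was also high in the arrays with high Prtn3, at 7.57 and 7.61 in 2BE replicates 3 and 4 and 7.89 in vehicle replicate 3, against 6.89 to 7.05 in the other 2BE livers and 6.98 to 7.35 in the other vehicle livers. Its part in the members' values was not tested. In these livers Cxcl2 rose (1.89 ± 0.21), the 1 called of 10 cytokines and chemokines, Cebpd (2.16 ± 0.33) and Cebpb (1.34 ± 0.20) rose, and Cebpa, a factor of granulocytes and of hepatocytes, fell (-0.96 ± 0.16). The spleen and liver responses at 4 h did not pass the test of their difference for any member (0 of 10, 0 also at an unadjusted p under 0.05), against 1.78% of all genes.

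In the liver at 7 d the members lay at 17.2 to 95.7. S100a8 had 26.9, 29.0, 43.1, 31.9 and 87.7 in the 2BE livers, against 31.4, 25.4, 27.4 and 22.2 in the vehicle livers. S100a9 had 50.0, 55.2, 57.1, 54.7 and 95.7 in the 2BE livers, against 51.4, 53.5, 54.7 and 41.7 in the vehicle livers. The highest value of both calgranulins came from 2BE replicate 5. Prtn3 had 72.6, 71.7, 82.8, 66.8 and 93.3 in the 2BE livers, against 72.6, 71.6, 60.7 and 69.2 in the vehicle livers. None of the 10 members was called (0 also at an unadjusted p under 0.05), against 0.748% of all genes, and the difference from the response at 4 h was called for 0 of 10, against 0.269%, with 0 at an unadjusted p under 0.05. The primary minus later difference was 0.59 ± 0.12 in the 2BE livers (SD, n = 5) and 0.75 ± 0.06 in the vehicle livers (SD, n = 4), with no overlap, over values near or below the array median, and the difference between the arms lay between -0.18 and -0.11 with 1 array left out. Around them, the lysozyme genes Lyz1 (0.63 ± 0.11, adjusted p = 0.0143) and Lyz2 (0.54 ± 0.10, adjusted p = 0.0213) and the chemokine gene Cxcl1 (3.17 ± 0.68, adjusted p = 0.0397) rose, and the monocyte and macrophage marker mean was 7.43 to 7.86 in the 2BE livers and 6.98 to 7.17 in the vehicle livers (2 of 10 higher, 0 lower). The part of these markers in the members' values was not tested.

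Across the 44 arrays, with the vehicle mean of its own set taken from each value, the members correlated (Pearson) to differing degrees. These correlations describe the arrays, which share set, arm and, for the tissues, possibly mice, and much of them came from the 8 spleen arrays of 4 h, so each is given with these and then without them (36 arrays). Mpo correlated with Ctsg at 0.97 and 0.91 and Elane with Ctsg at 0.97 and 0.89. Camp correlated with Ngp at 0.97 and 0.84. S100a8 and S100a9 correlated at 0.95 and 0.97. The primary genes correlated with Ltf, Camp and Ngp at 0.56 (Prtn3 and Camp) to 0.85 (Mpo and Ltf) with the spleen arrays of 4 h, and at 0.04 (Ctsg and Camp) to 0.60 (Mpo and Ltf) without them. Prtn3 correlated with Ctsg at 0.65 and 0.35 and with S100a8 at 0.71 and 0.72. Among all other genes those most alike to the mean of the primary genes were Ms4a3 (0.92 and 0.69), Fcnb (0.86 and 0.56), Itgb2l (0.82 and 0.47), Znhit1 (0.81 and 0.44) and Ap3s1 (0.80 and 0.52). Those most alike to the mean of the later genes were Chil3 (0.91 and 0.76), a chitinase-like protein of myeloid cells, Wfdc21 (0.85 and 0.54), Cd177, a neutrophil surface protein (0.84 and 0.67), Ifitm6 (0.82 and 0.56) and Trem3 (0.78 and 0.45). They were picked for their correlation, so it is no test.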

How the data were processed

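The authors deposited 1 table of intensity values, 1 per probe set and array, made with RMA (background correction, quantile normalization and probe summary) per the submitters' processing notes; the sources used here name no version of it. The values were linear (6.16 to 47797.8, 0 missing), and each had 1 added before log2 was taken, which understates fold changes of low genes. Of 45101 probe sets 64 were controls, and of the rest 34945 had 1 gene symbol, 932 several and 9160 none in the platform annotation. Gene IDs of 34741 were found in the RefSeq gene table and 0 symbols changed. Each of 18193 genes was represented by its probe set of highest mean. Cebpe and Ly6g of the lists were not used here.

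Group means were fitted with limma 3.58.1 (R 4.3.3) per tissue, without trend or robust options, and tests were two-sided with Benjamini-Hochberg adjustment over all genes. Differences between times were contrasts in the tissue fit, and those between tissues contrasts over the arrays of 1 time. SE is limma's moderated standard error. The number of arrays limits the precision. The fits were first tested on simulated data. Replicate numbers recur in both arms. The main fits held no replicate block. Deviations of same-numbered arrays correlated at 0.132 to 0.282 in the liver at 4 h. They were treated as pairs there on the basis of the data, which does not establish a pairing. In the other sets they correlated at -0.38 to 0.54 and were not taken as pairs. The alternative with a replicate block was fitted per tissue and blocked every set.

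The members, lists, tests and alternatives were chosen with earlier results of these data known. All 10 members were named, always also Csf3, Csf3r, Cxcr2, Cxcr4, Gfi1, Lcn2, Ctsc and Ms4a3, up to 3 called genes of each list with the largest change in a set, and the 5 genes most correlated with each group of members. Motifs were searched in 32851 RefSeq promoter windows (Python 3.11.15). Alternatives were a pseudocount of 16, further quantile normalization, a filter on low values, the mean of all probe sets, array weights, trend and robust options, the arrays in the fit, the replicate block and leaving out each array.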

Additional observations from a re-analysis of the deposited data

Results flagged for a closer look

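Single arrays stood apart from the rest of their group, by the gap relative to the group's range, in 6 of 90 tests. Each test took 1 member in 1 group of 4 or 5 arrays. Chance gives about 1 in 20, so the count lies near that rate. The members correlate, so the tests are not independent. On the log2 scale these were S100a9 in 2BE replicate 5 of the liver at 7 d (6.60, next 5.86), Elane in vehicle replicate 1 of the liver at 7 d (6.06, next 6.01) and Mmp8 in the same array (4.18, next 4.36). The others were Camp (4.03, next 4.25) and Mmp8 (4.63, next 4.37) in 2BE replicate 3 of the liver at 4 h, where the other arrays of the group held the same low value, and Elane in vehicle replicate 5 of the marrow (13.48, next 13.42).

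Responses differed by the test of the difference itself in 10 of 50 tests, 1 for each member in each comparison between tissues or between times. All 10 were between tissues at 7 d. Over all genes, 44.9% differed for marrow minus spleen at 7 d and 57.0% for spleen minus liver at 7 d. The counts of members there, 4 of 10 and 6 of 10, lay near these shares. Spleen minus liver at 4 h differed in 1.78% of all genes. Between times 51.3% of all genes differed in the spleen and 0.269% in the liver. In each of these last comparisons 0 members differed. Marrow minus spleen at 7 d gave -1.001 for Mpo, -0.87 for Elane, -0.92 for Prtn3 and -1.12 for Ctsg. Spleen minus liver at 7 d gave 0.92 for Mpo, 0.66 for Elane, 0.49 for Prtn3, 0.91 for Ctsg, -0.81 for S100a8 and -0.65 for S100a9.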

How the results depend on the processing

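No called difference changed direction under any alternative run. In the spleen at 7 d the count of members called was 0 with all spleen arrays, 4 with only the arrays of 7 d, 5 with the fit over all arrays of 7 d and 1 with array weights (S100a9, -0.51, adjusted p = 0.0417), and 0 to 1 with 1 array left out (Mpo without vehicle replicate 3 of the 4 h spleens, adjusted p = 0.0450). In the marrow it was 2, with 0 in the fit over all arrays of 7 d and 0 to 4 with 1 array left out. In the liver at 4 h it was 0, and 1 with the replicate block, a fit that also blocked the livers of 7 d. The block left the count at 2 in the marrow, with Prtn3 called (adjusted p = 0.0409) and Ltf not (0.0803), and changed no other call. Prtn3 in the marrow was also called with a pseudocount of 16 (0.0490), further quantile normalization (0.0279), the low-value filter (0.0474), array weights (0.0318) and trend and robust options (0.0427). Over all genes, 176 rather than 821 were called in the liver at 4 h and 508 rather than 938 in the spleen at 4 h when the 2 groups were fitted alone, and 471 in the liver at 4 h with the block. In the liver at 7 d 244 (2 groups alone), 406 (array weights) and 753 (all arrays of 7 d) were called rather than 136. The cause of these changes was not tested, except that the fits differ in the arrays they hold. Liver values near the array median limit what can be seen of most members there.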
